A study of Mus musculus with 4 samples.

Results

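The 10 genes described here mark dermal fibroblasts and their subsets. Dpp4 and Prdm1 were taken as papillary markers, Dlk1 and Ly6a as reticular markers, and Pdgfra, Pdgfrb, Cd34, Fap, Pi16 and S100a4 as general markers. Every ATAC-seq peak whose midpoint lay inside the mm10 span of one of these genes, or within 50000 bp of it, was counted as belonging to that gene. The genes are 10 of 21883 protein-coding genes, and their windows held 386 of 585165 peaks in the Sod2 knockout, 336 of 433013 in its control, 259 of 347438 in rotenone and 271 of 340240 in vehicle. ATAC-seq marks open chromatin by the insertion of adapters with Tn5 transposase. All 4 libraries came from dermal fibroblasts of C57BL/6 mice labelled 100 days, with no statement of what the days count. The first pair set Sod2-/- fibroblasts, a conditional knockout of the mitochondrial superoxide dismutase gene, against a Sod2+/+ control. The second pair set Sod2+/+ fibroblasts given rotenone, a complex I inhibitor labelled 250 µM, against Sod2+/+ fibroblasts given vehicle. The labels name neither the Cre driver, nor the number of animals, nor how the cells were sorted or grown.

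The skin dermis is built by fibroblasts of a papillary lineage, which lies below the epidermis and supports hair follicles, and of a reticular lineage, which makes the deep collagen-rich dermis and the adipocytes below it. In mouse dermis, CD26 (Dpp4) and Blimp1 (Prdm1) are used to mark the first, and Dlk1 and Sca1 (Ly6a) the second. The general markers are shared with other cells. Pdgfrb is also a marker of pericytes, CD34 of endothelial and blood progenitor cells, Ly6a of endothelium and S100a4 of macrophages.

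Each group had 1 library, so no difference below has a replicate check and no p-value is given. Read depth is unknown, and the peak lists differed in length. The 30000 peaks with the highest −log10 p in each list were therefore called strong, the next 30000 middle, and all others weak. The strong peaks had a median fold enrichment of 5.49 in the knockout and 6.78 in its control, and of 5.99 in rotenone and 7.13 in vehicle. Their median widths were 293 bp in the knockout, 376 bp in its control, 277 bp in rotenone and 349 bp in vehicle. The fold is the authors' value for each peak, so folds and ranks set side by side describe the place of a peak in its own list. How far the lower enrichment and narrower peaks of the knockout and rotenone libraries bear on the differences below was not tested. In a bulk library, a smaller share of cells of one subset and less open chromatin per cell cannot be told apart.

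RefSeq (GRCm38.p6) gave a promoter, 250 bases before to 50 after the gene start, for 7 of the 10 genes. The 3 shown are those in which peaks covered at least 127 of the 300 bases in every library. They are printed 5′ to 3′ on the strand of the gene, and capitals mark motif matches. S100a4 lies at chr3:90603520-90603819 on the + strand and holds a TATAAA match 31 bases before the start. Prdm1 lies at chr10:44458699-44458998 on the − strand and holds an AP-1 match (TGAATCA, 48 bases before the start) and a CCAAT match on the other strand. Cd34 lies at chr1:194938571-194938870 on the + strand and holds no match.
S100a4: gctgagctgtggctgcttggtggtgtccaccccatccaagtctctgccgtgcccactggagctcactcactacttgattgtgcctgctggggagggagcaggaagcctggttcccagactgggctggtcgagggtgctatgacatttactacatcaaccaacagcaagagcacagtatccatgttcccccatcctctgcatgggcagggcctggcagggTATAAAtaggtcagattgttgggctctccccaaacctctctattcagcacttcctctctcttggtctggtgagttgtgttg
Prdm1: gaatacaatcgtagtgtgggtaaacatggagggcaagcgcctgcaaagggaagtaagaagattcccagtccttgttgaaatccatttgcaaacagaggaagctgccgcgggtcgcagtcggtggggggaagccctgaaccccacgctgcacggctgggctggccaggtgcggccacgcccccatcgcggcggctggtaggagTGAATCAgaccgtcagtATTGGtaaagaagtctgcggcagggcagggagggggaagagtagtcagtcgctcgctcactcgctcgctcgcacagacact
Cd34: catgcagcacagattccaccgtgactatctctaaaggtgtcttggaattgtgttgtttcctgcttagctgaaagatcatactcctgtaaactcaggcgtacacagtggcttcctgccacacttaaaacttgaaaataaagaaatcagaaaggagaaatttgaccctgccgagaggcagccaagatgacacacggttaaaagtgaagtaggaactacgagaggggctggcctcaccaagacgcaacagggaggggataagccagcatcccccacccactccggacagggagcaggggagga

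The motifs searched on both strands were the AP-1 site TGANTCA, the E-box CACGTG, the GC box GGGCGG, the CCAAT box CCAAT and the TATA box TATAAA; no motif contains another. They were found in 6.99%, 7.84%, 46.2%, 38.2% and 12.6% of 21262 promoters of protein-coding genes. Of the 7 member promoters, 1 held an AP-1 match, 2 a CCAAT match (Prdm1 and Pi16) and 2 a TATAAA match (S100a4 and Dpp4), and 0 held an E-box or a GC box. The number of CG pairs was 20 in the Prdm1 promoter and 2 to 9 in the other 6, against a median of 13 over all promoters.

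In the Sod2 knockout, the reticular marker Ly6a held 0 strong peaks, against 2 in the control, and Fap held 1, against 3 in the control. Cd34, a sialomucin of the cell surface, held 2 in the knockout and 4 in the control. Dlk1 held 2 in the knockout and 3 in the control. Other members went the other way: Pi16 held 3 in the knockout and 1 in the control, and Pdgfrb 2 and 1. The papillary gene Dpp4 held 5 in the knockout and 4 in the control. Prdm1 and Pdgfra held 2 in each, and the cluster around S100a4 held 14 in each. Over the 10 windows the knockout had 33 strong peaks and the control 36. Per gene the median was 2 in the knockout and 2.50 in the control, against 2 in both over the windows of all protein-coding genes.

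With rotenone, Ly6a held 1 strong peak, against 4 with vehicle, and Fap held 1, against 2 with vehicle. The Sod2+/+ control and vehicle also differed from each other at Ly6a, with 2 and 4. Dpp4 held 6 with rotenone and 3 with vehicle, and S100a4 held 14 and 13. Over the 10 windows there were 35 strong peaks with rotenone and 39 with vehicle. The median per gene was 2 with rotenone and 3 with vehicle, and over all protein-coding genes 3 with rotenone and 2 with vehicle. The papillary genes together held 7 strong peaks in the knockout and 6 in its control, and 8 in rotenone and 6 in vehicle. The knockout and vehicle counts each include a Prdm1 peak only 27 bp wide, described below. The reticular genes held 2 in the knockout and 5 in its control, and 3 in rotenone and 6 in vehicle. Among the 60000 best ranked peaks of each list the papillary order turned round. The papillary genes then held 13 in the knockout and 15 in its control, and 11 in rotenone and 15 in vehicle. Of these, Dpp4 held 7 and 9, and 7 and 10. The reticular genes kept their order, with 10 and 13, and 8 and 16.

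**Figure D1:**
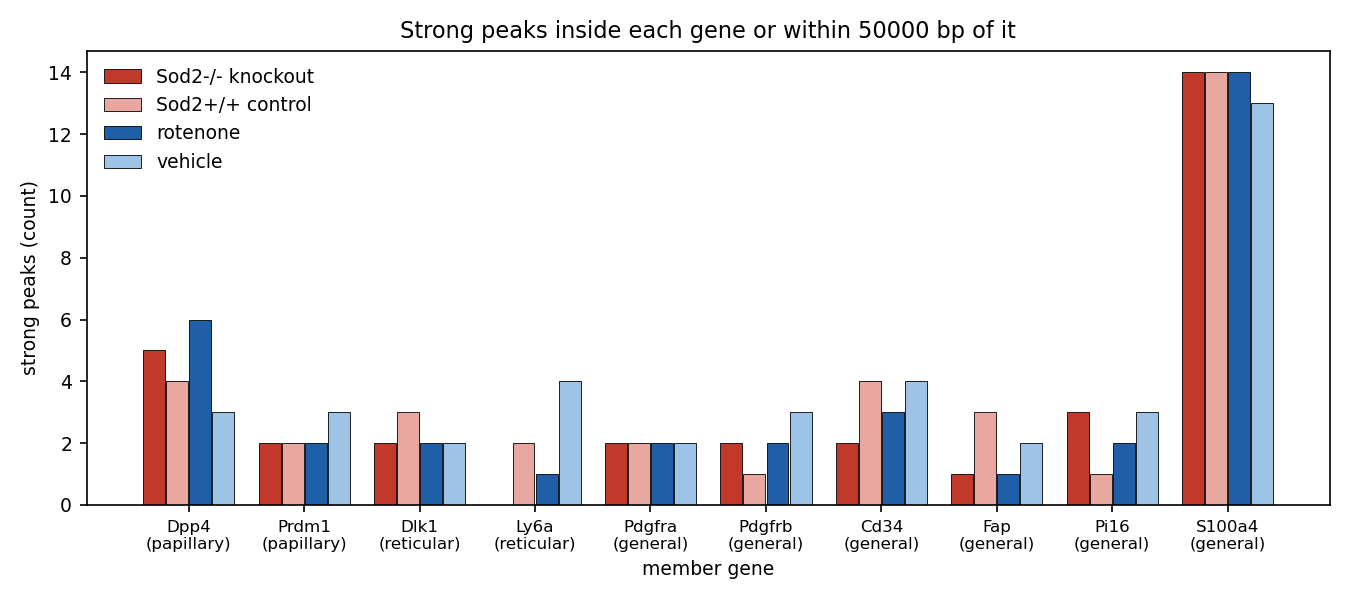
Strong peaks (count, y axis) in the window of each member gene (x axis) in the Sod2-/- knockout, its Sod2+/+ control, rotenone and vehicle, 1 library each. S100a4 holds 13 or 14 in every library, Ly6a 0 in the knockout and 4 in vehicle, and Dpp4 6 in rotenone and 3 in vehicle.

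A strong peak was called gained in the knockout or with rotenone when it overlapped none of the 60000 best ranked peaks of its partner library, and lost in the reverse case. In the knockout, 1 of 33 strong peaks of the members was gained (3.03%, exact 95% binomial interval 0.0767 to 15.8), against 5.33% of all strong peaks. Of the 36 strong control peaks, 3 were lost (8.33%, 1.75 to 22.5), against 6.76% of all. With rotenone, 3 of 35 were gained (8.57%, 1.80 to 23.1), against 6.81% of all, and 5 of 39 were lost (12.8%, 4.30 to 27.4), against 8.04% of all. The background share lay inside each of these intervals, which cover counting error only. Between vehicle and the Sod2+/+ control, which are both Sod2+/+ and differ by the vehicle alone according to the labels, the members had 0 such regions in either direction, against 1.03% and 0.847% of all strong peaks. These libraries also serve as the controls of the other 2 comparisons.

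By a wider rule, a strong peak that overlapped no strong peak of the partner, 7 of 33 were gained and 10 of 36 lost in the knockout, 21.2% and 27.8%, against 22.8% and 23.6% of all. With rotenone 8 of 35 were gained and 12 of 39 lost, 22.9% and 30.8%, against 24.4% and 24.8% of all. Vehicle against control gave 9 of 39 and 6 of 36, 23.1% and 16.7%, against 14.1% of all in both directions. Without the S100a4 window, the gained and lost shares were 31.6% (12.6 to 56.6) and 40.9% (20.7 to 63.6) in the knockout, and 28.6% (11.3 to 52.2) and 42.3% (23.4 to 63.1) with rotenone. The same 9 genes gave 34.6% (17.2 to 55.7) and 22.7% (7.82 to 45.4) between vehicle and control, so each of the 6 shares lay above its background, and the background lay inside the interval except for vehicle gains. By the strictest rule, with no partner peak of any strength, the members had 0 gained and 0 lost in the knockout, where 0.243% and 0.343% of all strong peaks were, and 0 gained and 2 lost with rotenone, where 0.773% and 0.943% were.

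Merging the strong peaks of the 4 libraries gave 52 regions in the member windows. Of these, 22 were strong in all 4 libraries (42.3%, 28.7 to 56.8), against 46.1% of 42457 regions in the genome. S100a4 held 12 of the 22. Without its window, chosen for omission after its values were seen, 10 of 36 were strong in all 4 (27.8%, 14.2 to 45.2). A further 6 of the 52 were strong in the control and vehicle only (11.5%, 4.35 to 23.4), against 7.52% in the genome, and 1 was strong in the knockout and rotenone only (1.92%, 0.0487 to 10.3), against 6.18%. That 1 lay inside Dpp4, while the 6 fell to Fap, Ly6a, Pdgfrb, Cd34 and S100a4. Regions in 1 window are not independent of each other, so the intervals are too narrow. By rank alone, 7 of the 9 papillary regions stood higher in the knockout than in its control (77.8%, 40.0 to 97.2), as did 2 of 8 reticular (25%, 3.19 to 65.1) and 11 of 35 general ones (31.4%, 16.9 to 49.3), against 48.8% of all regions. In rotenone, 4 of 9, 2 of 8 and 16 of 35 stood higher than in vehicle, against 49.6% of all regions. In the knockout the all-region share lay inside each of the 3 intervals. The 7 papillary regions that stood higher in the knockout include the Prdm1 peak of 27 bp.

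**Figure D2:**
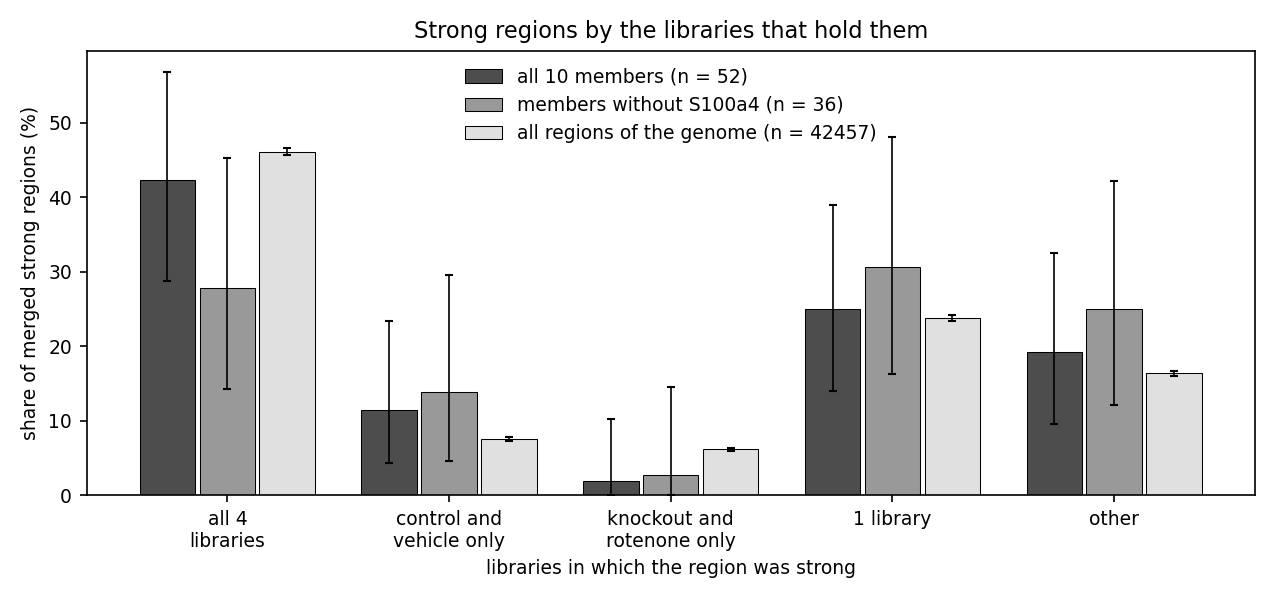
Share of merged strong regions (%, y axis) by the libraries in which they were strong (x axis), for all 10 member windows, for the 9 without S100a4 and for the genome; error bars are exact 95% binomial intervals. The members' share in control and vehicle only is 11.5%, that in knockout and rotenone only 1.92%, against 7.52% and 6.18% in the genome.

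Dpp4 encodes a dipeptidyl peptidase of the cell surface (chromosome 2, 62330073-62412315, − strand). It had the most strong regions of the 9 genes other than S100a4, jointly with Cd34: 6, of which 3 lay inside the gene. The peak 297 bp inside the gene start was strong with rotenone alone, and it was gained there. Its fold was 3.53 (rank 44863) in the knockout and 3.40 (rank 73560) in the control, and 5.27 (rank 21140) in rotenone and 3.39 (rank 88412) in vehicle. At 135 bp the rotenone peak was narrower than the 200 bp peak of vehicle, and none of the 4 peaks reached the promoter stretch itself.

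Another Dpp4 region, 30964 bp into the gene (62381070-62381465), was strong in the knockout and rotenone only. Its fold was 5.23 in the knockout and 4.50 in the control, and 5.31 in rotenone and 4.35 in vehicle. The control and vehicle peaks were middle peaks, at ranks 39875 and 46846. The region 13845 bp outside the gene, before its start (62425957-62426364) was strong in all 4, with folds of 6.78 in the knockout and 6.49 in the control, and 9.23 in rotenone and 8.07 in vehicle. At 61690 bp into the gene the fold was 7.41 (rank 6985) in the knockout and 8.67 (rank 9322) in the control, and 6.93 (rank 10197) in rotenone and 8.86 (rank 9598) in vehicle. Fold and rank there gave opposite orders for the knockout. The region at 62325491-62325693, inside the neighbouring gene Slc4a10, had folds of 4.51 in the knockout and 6.45 in the control, and 6.55 in rotenone and 8.81 in vehicle. At 11121 bp outside the gene, also before its start, the fold was 4.70 (rank 23440) in the knockout and 5.31 (rank 29841) in the control, and 6.03 (rank 15935) in rotenone and 5.11 (rank 33075) in vehicle.

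Prdm1 encodes Blimp1, a zinc finger repressor of transcription (chromosome 10, 44437174-44528558, − strand). The peak over its RefSeq start, which covers the AP-1 match printed above, was strong in no library. It was a middle peak in the knockout (fold 3.53, rank 42146) and in rotenone (fold 3.88, rank 46029), and a weak one in control (fold 2.40, rank 222749) and vehicle (fold 2.70, rank 195654). The RefSeq start of Prdm1 thus stood higher in the lists of both the knockout and rotenone than in those of their controls. That start (44458748) lies inside the span, and on the − strand the right end of the span lies before it. The reverse order was seen at a region 884 bp beyond that right end (44529279-44529606), which was strong in control, rotenone and vehicle. There the fold was 4.14 in the knockout, just below the strong peaks at rank 30059, and 6.86 in the control, and 5.31 in rotenone and 6.94 in vehicle.

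A further Prdm1 peak spanned 27 bp (44440384-44440410), with the same ends in the 3 libraries that held it. Its fold was 8.57 in the knockout and 4.36 in the control, and 7.16 in vehicle; rotenone had no peak there, so it counted as lost with rotenone by every partner rule. Its width is far below the median of strong peaks. The remaining Prdm1 region, 12000 bp from the left end, was strong in all 4, with folds of 6.40 in the knockout and 6.71 in the control, and 6.07 in rotenone and 7.84 in vehicle.

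Dlk1 encodes a transmembrane protein with EGF-like repeats that restrains adipocyte differentiation (chromosome 12, 109452485-109463336, + strand). It held 0 strong regions inside the gene and 3 before it. The farthest, 34675 bp from the gene (109417420-109418201), was the best ranked region of all 10 genes in each library. Its fold was 8.07 (rank 2521) in the knockout and 9.60 (rank 2186) in the control, and 9.41 (rank 1950) in rotenone and 9.03 (rank 3349) in vehicle. The next, 19725 bp from the gene, was also strong in all 4, with folds of 7.81 in the knockout and 7.43 in the control, and 5.18 in rotenone and 8.08 in vehicle. The knockout had 2 separate peaks there, of 154 and 218 bp, where the control had 1 of 553 bp.

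The remaining Dlk1 region lay 6238 bp from the gene (109446165-109446330). Its fold was 3.49 in the knockout and 6.07 in the control, and 2.35 in rotenone and 5.39 in vehicle. It was strong in the control alone, and the rotenone peak was a weak one of 30 bp at rank 340445, near the end of that list. The peak nearest to the start itself was weak in every library, with folds between 2.77 and 3.16. Dlk1 therefore had its strong peaks at a distance, with a weak peak at its start in each library.

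Ly6a encodes Sca1, a small glycolipid-anchored surface protein (chromosome 15, 74994877-74998031). Its window also holds Ly6e, Ly6i and Ly6c1, near relatives of the same family, so reads from near-identical stretches may be shared among them. It held 5 strong regions, of which 0 were strong in all 4 libraries. The one inside the gene (74995437-74995686) was strong in the control and vehicle and middle in the others. Its fold was 3.90 (rank 31505) in the knockout and 5.41 (rank 23669) in the control, and 3.88 (rank 39401) in rotenone and 5.51 (rank 25289) in vehicle.

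Beside it, 1964 bp to the left of the gene (74992846-74992980), a region was lost in the knockout. Its fold was 2.37 (rank 161996) in the knockout and 5.92 (rank 19633) in the control, and 3.04 (rank 87780) in rotenone and 4.60 (rank 42196) in vehicle. It was not called in rotenone, since the vehicle peak was not strong. On the other side, a region of 85 bp nearest to Ly6c1 (75021209-75021293) was lost with rotenone, which had no peak there. Its fold was 2.64 in the knockout and 4.84 in the control, and 6.26 in vehicle. A region 21659 bp to the right of Ly6a showed close folds in rotenone and vehicle, 5.81 and 5.97, and was a middle peak in the knockout (fold 3.83) and its control (fold 4.26). The last, nearest to Ly6e, was strong in vehicle alone (fold 5.74).

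**Figure D3:**
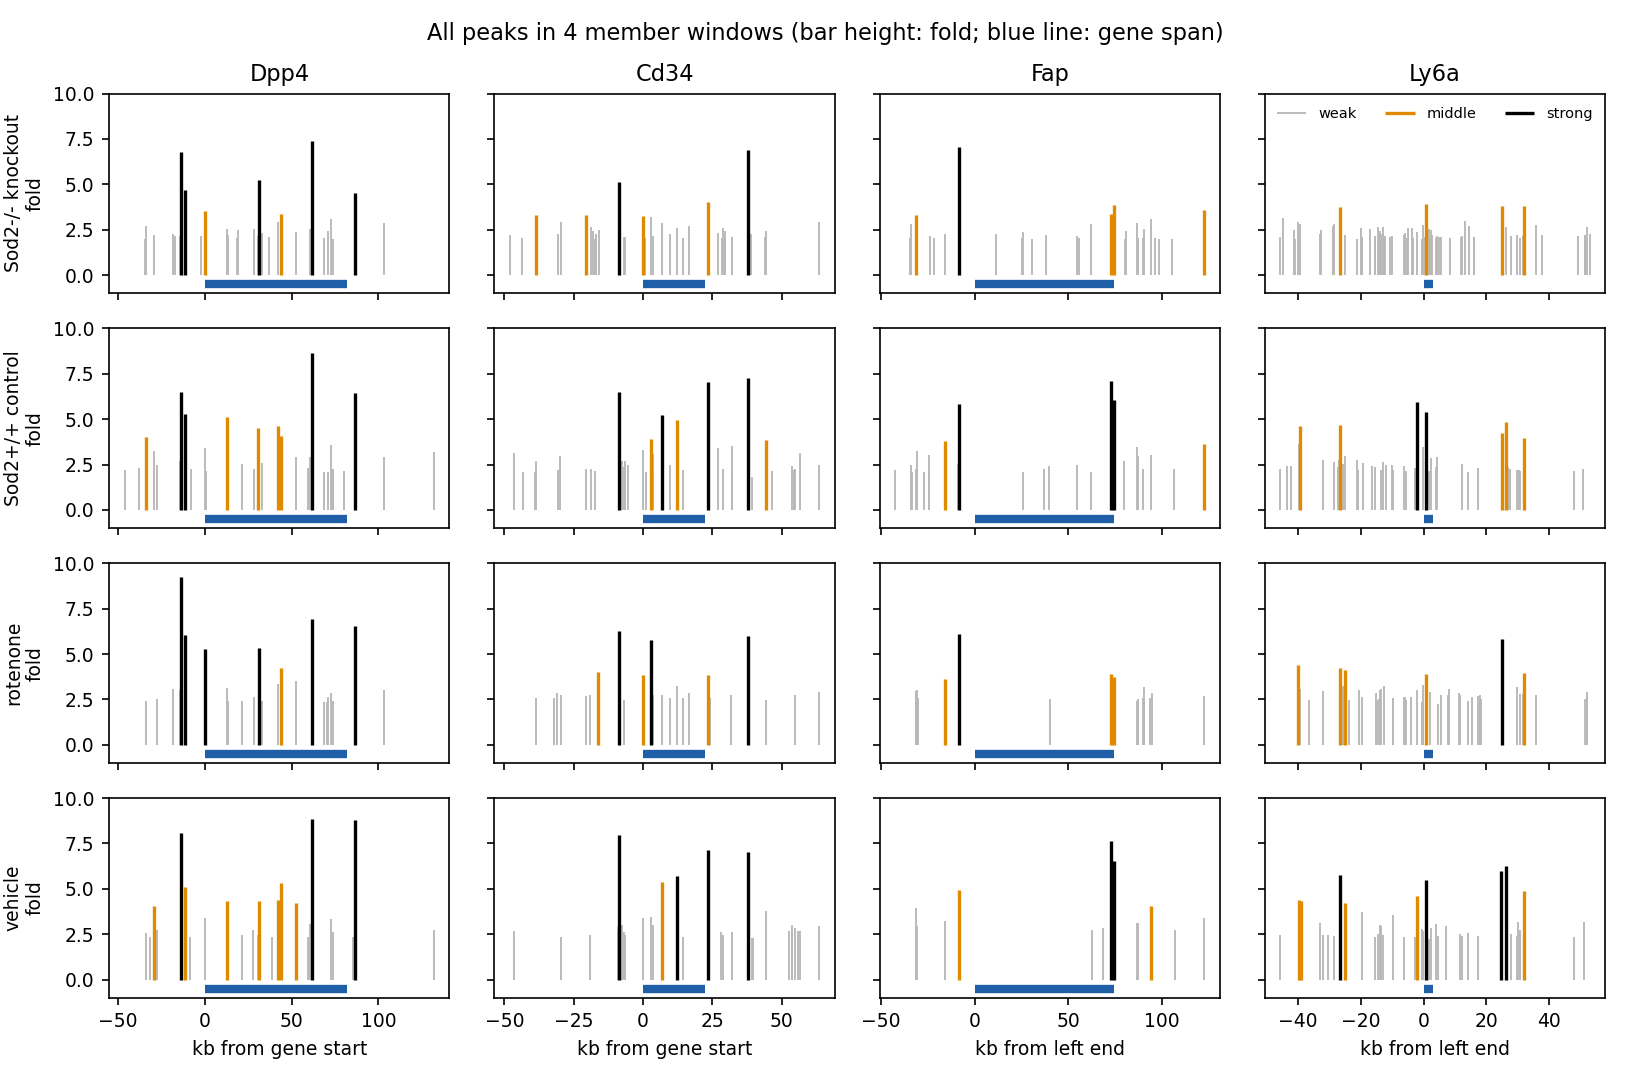
Every peak in the windows of Dpp4, Cd34, Fap and Ly6a: x axis, distance in kb from the gene start, or from the left end of the span for Fap and Ly6a; y axis, fold; rows from top to bottom, Sod2-/- knockout, Sod2+/+ control, rotenone and vehicle. Bars are black for strong, orange for middle and grey for weak peaks; the pair of peaks at the right end of Fap is black in control and vehicle and orange in the knockout and rotenone.

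Fap encodes fibroblast activation protein, a serine protease of the surface of activated fibroblasts (chromosome 2, 62500936-62575509). It is the neighbour of Dpp4, 88620 bp away, and 11380 bp belong to both windows, but 0 strong regions lay in both. A pair of regions at the right end of the gene was strong in the control and vehicle and middle in the knockout and rotenone. The inner one (62573561-62574359) had folds of 3.39 (rank 49940) in the knockout and 7.12 (rank 13190) in the control, and of 3.92 (rank 44255) in rotenone and 7.65 (rank 13537) in vehicle. The one nearest to that end (62574935-62575341) had folds of 3.85 (rank 38107) in the knockout and 6.04 (rank 20915) in the control, and of 3.74 (rank 49877) in rotenone and 6.51 (rank 19176) in vehicle. The end peak was 231 bp wide in the knockout and 365 bp in the control, and 297 bp in rotenone and 357 bp in vehicle.

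The remaining Fap region, 8428 bp to the left of the gene, had the reverse order. Its fold was 7.08 (rank 8380) in the knockout and 5.82 (rank 23918) in the control, and 6.11 (rank 15614) in rotenone and 4.93 (rank 38026) in vehicle. No Fap region was called gained or lost against the partner's 60000 peaks.

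Cd34 (chromosome 1, 194938821-194961292, + strand) held 6 strong regions, 3 inside the gene. These 3 were strong in 1 library each. The one 6731 bp into the gene (194945358-194945746) was lost in the knockout, with a fold of 2.88 (rank 79446) in the knockout and 5.22 (rank 29808) in the control, and 2.73 (rank 180515) in rotenone and 5.37 (rank 30818) in vehicle. The vehicle peak fell just short of the strong list, so the same region was not called with rotenone. The one 12335 bp into the gene was lost with rotenone, with folds of 2.58 in the knockout and 4.95 in the control, and 3.22 in rotenone and 5.69 in vehicle.

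By contrast, the region 2883 bp into Cd34 (194941621-194941787) was gained with rotenone. Its fold was 3.18 in the knockout and 3.93 in the control, and 5.77 in rotenone and 3.47 in vehicle. Just past the gene, 1080 bp from its end (194962270-194962475), the peak was strong in the control (fold 7.07) and vehicle (fold 7.12) and middle in the knockout (fold 4.00) and rotenone (fold 3.86). The regions 8789 bp before the start and 15301 bp past the end were strong in all 4. The second of these was broad, between 914 and 1046 bp, with folds of 6.91 in the knockout and 7.26 in the control, and 6.00 in rotenone and 7.02 in vehicle. The peak over the start, which covers part of the promoter printed above, had folds of 3.27 (rank 55852) in the knockout and 3.28 (rank 78008) in the control, and of 3.86 (rank 46176) in rotenone and 3.42 (rank 86801) in vehicle. As at Prdm1, it was a middle peak in the knockout and rotenone and a weak one in the controls, here with near-equal folds in the knockout and its control.

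**Figure D4:**
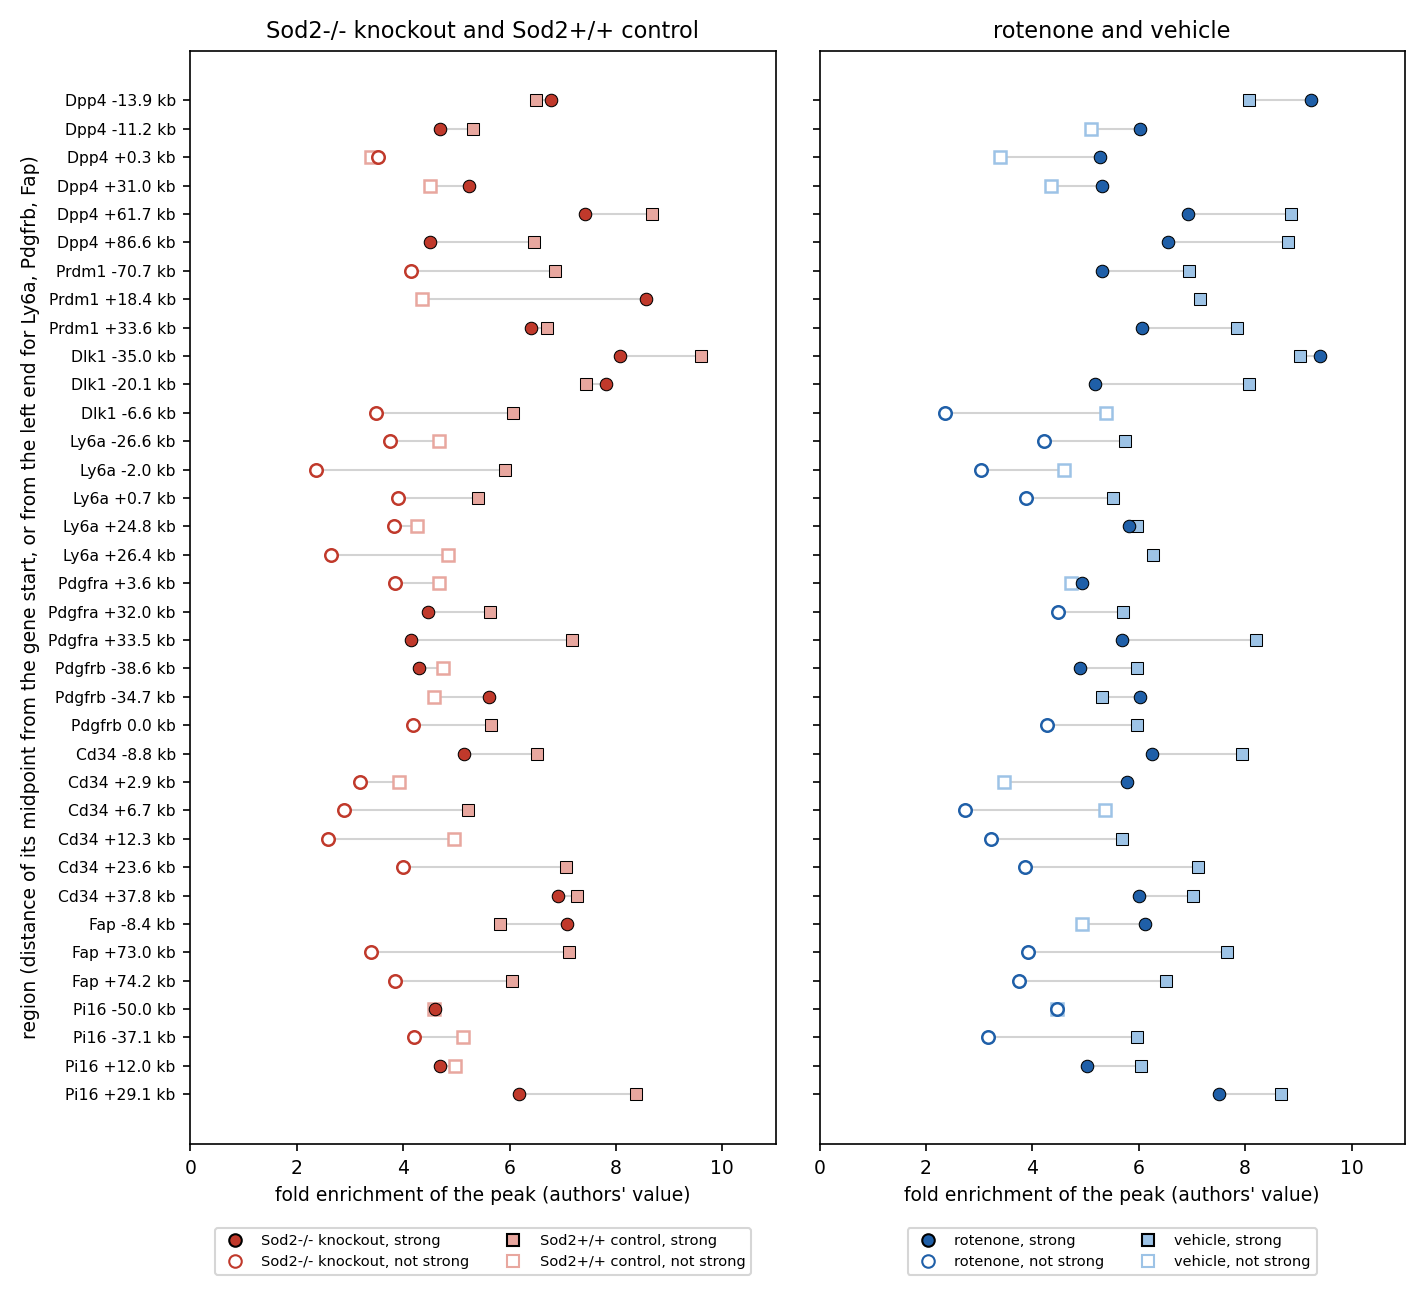
Fold of the best ranked peak (x axis) at each of the 36 regions outside the S100a4 window (y axis, distance of its midpoint from the gene start or left end), for the Sod2-/- knockout (circles) and Sod2+/+ control (squares) on the left and rotenone (circles) and vehicle (squares) on the right; filled marks are strong peaks, and a mark is missing where no peak was called. At Fap +73.0 kb the circles lie at 3.39 and 3.92 and the squares at 7.12 and 7.65.

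Pdgfra and Pdgfrb encode the PDGF receptors, tyrosine kinases that carry growth signals into mesenchymal cells. Pdgfra (chromosome 5, 75151322-75198206, + strand) held 2 strong peaks in every library, and all 3 of its regions lay inside the gene. The one 33538 bp past the start was strong in all 4, with folds of 4.14 (rank 29914) in the knockout and 7.17 (rank 14978) in the control, and 5.68 (rank 18728) in rotenone and 8.20 (rank 12366) in vehicle. The broad region beside it (75183856-75184566) had folds of 4.46 in the knockout and 5.64 in the control, and 4.49 in rotenone and 5.70 in vehicle, and was a middle peak in rotenone. Another one, 3611 bp past the start, was strong in rotenone only, with folds of 3.85 in the knockout and 4.68 in the control, and 4.93 in rotenone and 4.73 in vehicle. Within 1000 bp of the start, the best Pdgfra peak was a middle one in the control (fold 4.03) and a weak one in the knockout (fold 2.29), rotenone (fold 2.83) and vehicle (fold 3.52). These peaks lay at different places, those of control and vehicle before the start and those of the knockout and rotenone over or just past it.

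Pdgfrb (chromosome 18, 61045127-61085067) had a region over its left end (61044805-61045419) that was strong in the control and vehicle and middle in the others. Its fold was 4.19 (rank 30762) in the knockout and 5.65 (rank 26556) in the control, and 4.28 (rank 34979) in rotenone and 5.96 (rank 24880) in vehicle. These ranks lie on either side of the limit of 30000, and the widths were alike, between 588 and 605 bp. The other 2 strong regions of the window lay inside the neighbouring gene Slc6a7. The one at 61010183-61010762 had folds of 5.61 in the knockout and 4.58 in the control, and 6.03 in rotenone and 5.31 in vehicle. Csf1r, the receptor gene of macrophage growth factor, also lies in this window, with 0 of its strong regions.

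Pi16, whose product marks fibroblasts of the adventitia of vessels (chromosome 17, 29318796-29328903, + strand), held 0 strong regions inside the gene. Its start had no peak in the control and vehicle and a weak one in the knockout (fold 2.02, 43 bp) and rotenone (fold 2.94, 42 bp), at different places. Of 4 strong regions, the only one strong in all 4 libraries lay 49 bp from Mtch1, a gene of a mitochondrial outer membrane protein. Its folds were 6.18 in the knockout and 8.37 in the control, and 7.51 in rotenone and 8.67 in vehicle. A region 1984 bp past Pi16 was strong in all but the control, with folds of 4.69 in the knockout and 4.97 in the control, and 5.02 in rotenone and 6.04 in vehicle. A region inside BC004004, 37056 bp to the left of Pi16, was lost with rotenone (fold 3.16, against 5.97 in vehicle). A second one in that gene was strong in the knockout alone, though its fold, 4.60, was near the 4.58 of the control. It lay 49917 bp from Pi16, the farthest strong peak inside any window, while the nearest one outside lay 50974 bp from Dpp4 (fold 4.35 in the knockout).

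S100a4, which encodes the calcium-binding protein FSP1 (chromosome 3, 90603770-90606045, + strand), lies among S100a2, S100a3, S100a5, S100a6 and S100a7a. It held 16 regions, of which 1 lay inside the gene, and at least 13 strong peaks in every library. As many strong peaks were found in 0.507% of gene windows in the knockout, 0.772% in the control, 0.512% in rotenone and 0.731% in vehicle. The peak over the start covered 241 to 288 of the 300 promoter bases printed above. Its fold was 5.36 (rank 11528) in the knockout and 7.16 (rank 5100) in the control, and 5.57 (rank 11586) in rotenone and 7.11 (rank 6560) in vehicle. The peak inside the gene had the reverse order, with folds of 6.90 (rank 5398) in the knockout and 5.90 (rank 7492) in the control, and 7.86 (rank 4192) in rotenone and 6.34 (rank 7385) in vehicle.

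The best ranked region of the window in the knockout lay 16633 bp from S100a4, inside the span of S100a3 (90586780-90587495), with folds of 6.94 (rank 4022) in the knockout and 6.05 (rank 5734) in the control, and 6.69 (rank 5038) in rotenone and 5.85 (rank 6983) in vehicle. The region at 90627899-90628092, nearest to S100a6, was the only member region called in both comparisons. Its fold was 2.96 (rank 76629) in the knockout and 7.84 (rank 12008) in the control, and 3.16 (rank 93543) in rotenone and 7.29 (rank 16229) in vehicle. It lay 21950 bp past S100a4 and counted as lost in both. The single gain of the knockout among the members lay inside S100a7a (90653858-90654001), with folds of 4.21 in the knockout and 2.60 in the control. A gain with rotenone at 90598019-90598178, inside the span of S100a3, had folds of 4.75 in rotenone and 3.50 in vehicle.

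Peaks at gene starts were then compared across the 10 genes. For Ly6a, Pdgfrb and Fap either end of the span was used. Of all 21883 protein-coding genes, 17491 were scored at a RefSeq start and the rest at either end. The background shares below thus rest mostly on another anchor than these 3 genes. Prdm1 was scored at its RefSeq start alone, so the region 884 bp beyond its right end, strong in control, rotenone and vehicle, was not counted. A strong peak within 1000 bp was found at 1 of the 10 in the knockout (S100a4) and 4 in the control (Ly6a, Pdgfrb, Fap and S100a4), against 37.3% of all protein-coding genes in both. There were 2 with rotenone (Dpp4 and S100a4) and 4 with vehicle (the same 4 as in the control), against 38.1% and 37.2% of all. Ly6a, Pdgfrb and Fap thus lacked in both the knockout and rotenone the strong end peak that they had in both controls. These peaks lay at the left end of Ly6a and Pdgfrb and at the right end of Fap. The reference gave no strand for the 3 genes, so whether each of these ends is the gene start was not determined. Over all genes with a strong start peak, 10.3% of those of the control lacked one in the knockout and 9.62% of those of vehicle lacked one in rotenone. In the other direction, 10.4% of those of the knockout were without one in the control (0 members) and 11.7% of those of rotenone were without one in vehicle (1 member, Dpp4). Between vehicle and the control the shares were 6.46% and 6.71%, with 0 members in either direction. With 60000 strong peaks per list, all 3 genes had such a peak in all 4 libraries. The order then turned round, with 7 of the 10 members in the knockout and 5 in the control, and 7 in rotenone and 4 in vehicle. The start peaks of Dpp4, Prdm1 and Cd34 lay among the 60000 in the knockout and rotenone only. No share over all genes is given at this list length, so these counts have no background beside them.

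**Figure D5:**
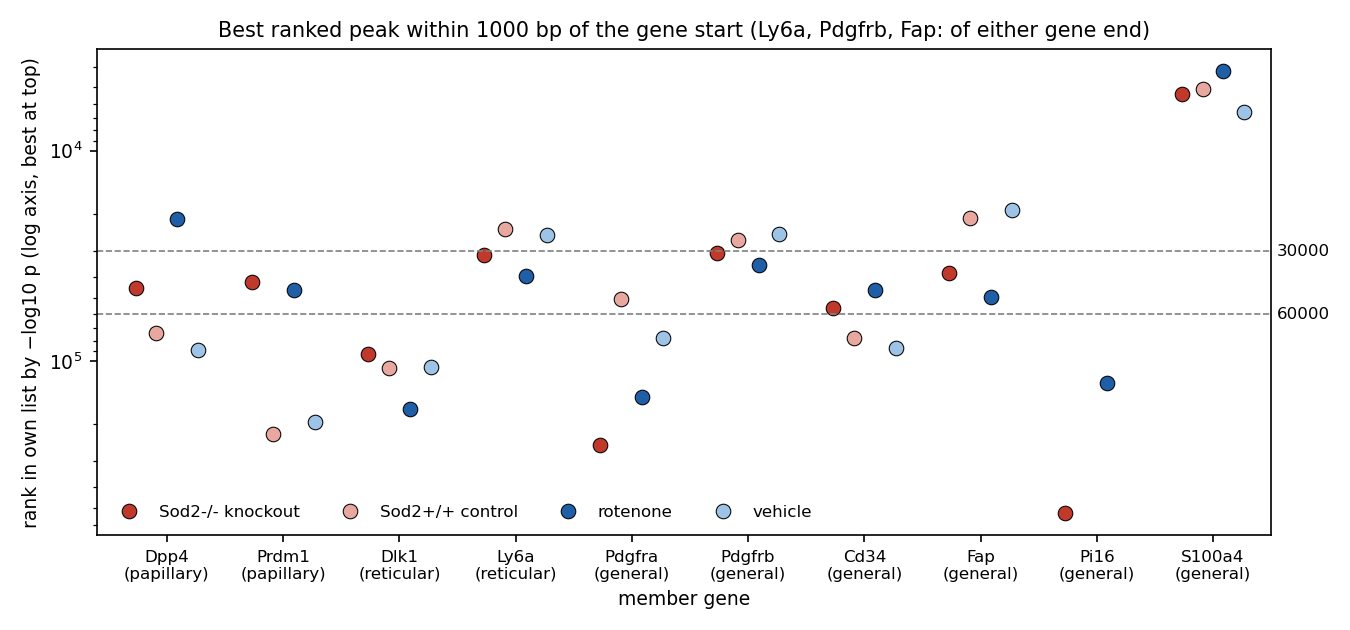
Rank of the best peak within 1000 bp of the gene start, or of either end for Ly6a, Pdgfrb and Fap, in its own list (y axis, log scale, best at the top) for each member (x axis) and library; dashed lines mark ranks 30000 and 60000, and no mark means no peak. Ly6a, Pdgfrb and Fap lie above the upper line in control and vehicle only, and Dpp4 in rotenone only.

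Other genes of the 2 lineages were listed for comparison. Of 12 further papillary genes, a strong start peak was present at 4 in the knockout and 5 in the control, and at 4 in rotenone and 4 in vehicle. Axin2, a target of Wnt signalling, Wif1, a secreted Wnt inhibitor, and Lrig1, an inhibitor of EGF receptor signalling, had one in all 4, while Apcdd1, another Wnt inhibitor, had one in all but vehicle. Pdpn, the gene of the surface protein podoplanin, had one in the control and vehicle and in neither the knockout nor rotenone, the pattern of Fap and Ly6a. The windows of these 12 genes held 46 strong peaks in the knockout and 53 in the control, and 44 in rotenone and 48 in vehicle. This order was opposite to that of the strong peaks of Dpp4 and Prdm1 together. Among the 60000 best ranked peaks, Dpp4 and Prdm1 had the reverse of their strong-peak order, as given above. Of the strong peaks of the 12 genes, 2 of 46 were gained and 4 of 53 lost in the knockout (4.35% and 7.55%, against 5.33% and 6.76% of all strong peaks). With rotenone these were 1 of 44 and 5 of 48 (2.27% and 10.4%, against 6.81% and 8.04%). Of 12 reticular and hypodermal genes, a strong start peak was present at 3 in the knockout and 3 in the control, and at 5 in rotenone and 3 in vehicle. Il6, Mgp and Mfap5 had one in all 4, while Cnn1, a smooth muscle calponin gene, and Gpx3, a secreted glutathione peroxidase gene, had one in rotenone only. Their windows held 38 strong peaks in the knockout and 39 in the control, and 37 in rotenone and 42 in vehicle. In the knockout 4 of 38 were gained and 4 of 39 lost (10.5% and 10.3%, against 5.33% and 6.76% of all), and with rotenone 6 of 37 and 4 of 42 (16.2% and 9.52%, against 6.81% and 8.04%).

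The labelled cell type was checked against its markers. Of 10 fibroblast genes, among them Col1a1, Col3a1 and Twist2, with Dcn and Thy1 also in the reticular list, a strong start peak was present at 1 in the knockout, 1 in the control, 1 in rotenone and 2 in vehicle (Col1a2 in all 4), below the share over all genes. A start peak of any strength was present at 9, 9, 10 and 8 of them, against 73.1%, 72.2%, 69.0% and 70.6% of all protein-coding genes. Among markers of other cells, 0 of 8 keratinocyte, 0 of 8 lymphocyte and 0 of 8 pericyte and mural genes had a strong start peak in any library. The lymphocyte genes did differ by other measures: their windows held 20 strong peaks in the knockout and 14 in the control, and 21 in rotenone and 15 in vehicle. A start peak of any strength was present at 4 of these 8 genes in the knockout and 1 in the control, and at 3 in rotenone and 1 in vehicle. For the keratinocyte genes these counts were 6 and 4, and 4 and 4. For the pericyte and mural genes they were 4 and 5, and 5 and 6. The windows of the keratinocyte genes held 14 strong peaks in the knockout and 12 in the control, and 13 in rotenone and 12 in vehicle. Those of the pericyte and mural genes held 27 and 32, and 28 and 27. Endothelial genes had 2 of 8 in the knockout and 2 in the control, and 1 in rotenone and 3 in vehicle, among them Tek and Erg. Myeloid genes had 0 of 8 except for Spi1 in rotenone, and of 6 adipocyte genes only Fabp4 had one, in the knockout and rotenone. Melanocyte and Schwann genes had 4 of 8 in the knockout and 3 in the control, and 3 in rotenone and 4 in vehicle, among them Mitf and Pmel. A strong peak at the gene start thus did not set fibroblast markers apart from those of other skin cells in these lists. Strong peaks per fibroblast gene window numbered 2.60 in the knockout and 3 in the control, and 2.60 in rotenone and 3 in vehicle, against a mean of 2.87 to 2.90 over all genes. The part of other cells in the differences above was not tested.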

How the data were processed

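ATAC-seq peak lists of 4 mouse dermal fibroblast libraries were used, 1 per group. Per the submitters' processing notes, the build was mm10 and the tools included HOMER, MACS2, Bowtie2 and bedtools; no version, setting or Tn5 shift is stated. Per library, the authors deposited each peak's position, a score (not used), a fold enrichment (a ratio) and the −log10 of its p and q, read here in MACS2 broad peak column order.

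Peaks were ranked within each list by −log10 p, ties by fold. Coordinates were made 1-based. Gene spans came from a RefSeq table (GRCm38.p6, the assembly of mm10), and gene starts from its promoter table, which matched 17491 of 21883 protein-coding genes and 7 members. Exons and UTRs were not used here. Overlap meant 1 bp. Intervals are exact (Clopper-Pearson) 95% binomial. The overlap code was checked on planted changes. Alternatives were lists of 15000 and 60000 strong peaks (partner lists of 30000 and 120000), ranking by fold, windows of 10000 bp, 50% coverage, partner peaks of any strength, a start window of 2500 bp and, added after seeing the data, a partner list of 30000 and omission of S100a4. All 10 members are named with the start peak, the best region and every called region. The members, lists and rules were chosen with earlier results of these data known. Scripts ran in Python 3.11.15 with scipy 1.17.1, pandas 2.3.3, matplotlib 3.10.9 and numpy 2.4.6.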

Additional observations from a re-analysis of the deposited data

How the results depend on the processing

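No paired analysis was possible because each group has 1 library. With 15000 strong peaks, the member windows held 16 in the knockout and 15 in the control, and 15 in rotenone and 19 in vehicle; with 60000 they held 67 and 74, and 61 and 70. Windows of 10000 bp gave 15 and 21, and 18 and 19. Without S100a4 the counts were 19 and 22, and 21 and 26. Members with a strong start peak numbered 1 in every library with 15000. With 60000 they numbered 7 in the knockout and 5 in the control, and 7 in rotenone and 4 in vehicle. The excess of the controls thus turned round with 60000, and the cause was not tested. No share over all genes is given beside these start counts. Ranking by fold gave 2 in the knockout.

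Counts of gained and lost regions follow how loose each rule is, so the share of all strong peaks under the same rule is given in brackets. In the knockout, gained regions (1 of 33 as reported) numbered 2 of 16 with 15000 (4.90%), 10 of 67 with 60000 (12.1%), 0 of 15 with 10000 bp windows (5.33%), 0 against partner peaks of any strength (0.243%), 7 against 30000 (22.8%) and 0 of 19 without S100a4 (5.33%). Lost ones (3 of 36) numbered 10 of 74 with 60000 (14.0%), 0 against any peak (0.343%), 5 with 50% coverage (13.2%) and 10 against 30000 (23.6%). With rotenone, gained regions (3 of 35) numbered 0 of 15 with 15000 (5.52%), 7 of 61 with 60000 (15.6%), 0 against any peak (0.773%) and 8 against 30000 (24.4%). Lost ones (5 of 39) numbered 1 of 19 with 15000 (6.09%), 11 of 70 with 60000 (16.5%), 2 of 19 with 10000 bp windows (8.04%), 2 against any peak (0.943%), 9 with 50% coverage (14.7%) and 12 against 30000 (24.8%). Vehicle against control (0 and 0) gave 2 of 74 lost with 60000 (3.45%), and 9 of 39 and 6 of 36 against 30000 (14.1% each). Depth is unknown, so a peak missing from a list may lie below the detection of that library.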
